A study of Mus musculus with 15 samples.

Results

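Genes of 2 connected defences of phagocytes were followed in mouse olfactory bulbs: the Fc gamma receptors, and the phagocyte oxidase that these receptors can set going. The set held 9 genes, Fcgr1, Fcgr2b, Fcgr3, Fcgr4, Fcer1g, Cyba, Cybb, Ncf1 and Ncf4, and was made of every probe to which the array design gave one of these names. All 9 were tested, among 27339 genes in all. They had 10 probes, since Cyba had 2, and every probe passed the filter on low signals.

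Fc gamma receptors bind the constant part of immunoglobulin G and so let a cell recognise antibody-coated particles. In mice Fcgr1, Fcgr3 and Fcgr4 encode activating receptors, which need the signalling chain encoded by Fcer1g, while Fcgr2b encodes the inhibitory receptor. The phagocyte oxidase makes superoxide at the membrane. Its membrane core is built from the products of Cybb (gp91phox) and Cyba (p22phox), and it is switched on when cytosolic subunits, among them those of Ncf1 (p47phox) and Ncf4 (p40phox), join that core. In the brain the main resident cells with these genes are microglia and the macrophages of its borders.

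The tissue came from 15 male mice aged 6 to 8 weeks, each with 500 nL of an adeno-associated virus injected into the bulb 2 weeks before RNA extraction, and each mouse gave 1 array. In the active CRHR1 group, 5 CRHR1-Cre mice of the strain C57Bl/6 carried AAV-flex-(CA)CRHR1, which codes for a constitutively active form of CRHR1, the receptor for corticotropin-releasing hormone (CRH), a stress peptide. In the knockout group, 5 CRHR1-/- mice of the strain 129S4/SvJae carried AAV-flex GFP, and the titles of these samples name no Cre. In the Cre GFP group, 5 CRHR1-Cre mice of the strain C57Bl/6 carried AAV-flex GFP. The submitters rank the groups as high, low and pseudo-wild type in CRH signalling. All 15 mice thus received a virus, and a flex cargo is expressed only in cells with Cre, which the labels place in CRHR1-positive granule cells, inhibitory neurons of the bulb. Strain, Cre and viral expression cannot be told apart from loss of the receptor in any comparison with the knockout group.

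Levels are log2 signals of a probe minus the 75th percentile of its array, and a difference of 1 in level is thus a doubling. Arrays of a group correlated with each other at 0.983 to 0.994 over the 27339 genes tested, and 59.9% to 67.8% of the spots of an array were well above background. Crhr1 itself lay at 3.57 to 3.83 on active CRHR1 arrays, 2.99 to 3.32 on knockout arrays and 3.48 to 3.86 on Cre GFP arrays, and was lower but still measured in the knockout group (-0.47 ± 0.09 log2 against Cre GFP, adjusted p = 0.0146 by limma). Between active CRHR1 and Cre GFP, Crhr1 did not pass (0.09 ± 0.09 log2, adjusted p = 0.543 by limma), and whether its probe reads the viral form was not tested. Whether its probe lies in the deleted part of the gene is not given in the sources used here. The 17 marker genes of olfactory bulb neurons were well above background on all 15 arrays. Knockout arrays and Cre GFP arrays 1 to 3 shared slide 1, and active CRHR1 arrays and Cre GFP arrays 4 and 5 shared slide 2. The labels call the 5 samples of a group separate mice, and their number limits the precision of every value.

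Only a few sequences are shown, those of probes and promoters that bear on how the values can be read. The Fcgr3 probe lies in coding sequence for the extracellular part of the receptor, at chr1:172984129-172984188 (mm9, minus strand), and is shown because that part is very similar between the products of Fcgr3 and Fcgr2b in mice. Cross-hybridisation between these transcripts was not tested. The other Cyba probe lies in coding sequence, at chr8:124950893-124951161 (mm9, minus strand), and is shown because it gives a second reading of this gene. Its 60 bases lie across an interval of 269 bases, so that it spans a junction between exons. Neither sequence has capitals. The place of both probes within their genes is background knowledge, since no transcript table was used. For 9 of the 10 probes no other probe of the array shared a stretch of 16 bases, and 1 other probe did so with the Cyba coding probe.
Fcgr3 probe: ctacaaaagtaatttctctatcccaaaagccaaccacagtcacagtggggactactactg
Cyba coding probe: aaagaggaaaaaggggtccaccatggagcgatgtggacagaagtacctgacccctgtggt

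Promoters of 4 genes are shown because they hold matches to short motifs read by immune transcription factors, and they were chosen for those matches. The promoters of Fcgr2b, Fcer1g and Cyba held no match, and that of Fcgr3 held 1 of a single motif. Each is the 250 bases before the start of the gene in the RefSeq promoter table for build GRCm38.p6, read 5′ to 3′ on the strand of the gene. Fcgr1 lies at chr3:96293970-96294219 (minus strand), Fcgr4 at chr1:171018676-171018925 (plus strand), Cybb at chrX:9469325-9469574 (minus strand) and Ncf1 at chr5:134229626-134229875 (minus strand). Capitals mark matches to any of 3 short motifs on either strand. They are TTCNNNGAA, the form of the gamma-interferon activated site; GAAANNGAA, a core read by interferon regulatory factors; and GAGGAA, a core read by PU.1 and related ETS factors.
Fcgr1 promoter: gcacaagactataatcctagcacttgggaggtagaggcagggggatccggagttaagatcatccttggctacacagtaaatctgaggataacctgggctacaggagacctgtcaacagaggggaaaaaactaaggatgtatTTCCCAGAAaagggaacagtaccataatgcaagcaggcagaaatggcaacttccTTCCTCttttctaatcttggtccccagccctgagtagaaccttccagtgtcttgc
Fcgr4 promoter: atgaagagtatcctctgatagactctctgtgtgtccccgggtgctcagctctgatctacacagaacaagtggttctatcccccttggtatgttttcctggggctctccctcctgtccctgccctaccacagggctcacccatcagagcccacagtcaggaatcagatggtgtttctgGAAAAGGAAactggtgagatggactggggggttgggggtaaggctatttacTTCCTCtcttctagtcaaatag
Cybb promoter: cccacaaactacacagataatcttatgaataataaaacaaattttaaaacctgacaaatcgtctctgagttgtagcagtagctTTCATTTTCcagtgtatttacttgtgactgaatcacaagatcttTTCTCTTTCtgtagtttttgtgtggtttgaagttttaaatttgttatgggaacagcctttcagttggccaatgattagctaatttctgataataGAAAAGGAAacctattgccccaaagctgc
Ncf1 promoter: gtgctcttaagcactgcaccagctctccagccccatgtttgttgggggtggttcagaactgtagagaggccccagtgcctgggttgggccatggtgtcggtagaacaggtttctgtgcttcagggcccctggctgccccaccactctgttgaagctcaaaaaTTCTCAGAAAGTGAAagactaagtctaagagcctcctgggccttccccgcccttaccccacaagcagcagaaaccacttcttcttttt

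The table held promoters of 8 of the 9 genes, Ncf4 not among them, and 32851 promoters in all. The motif TTCNNNGAA reads the same on both strands, and it was found before Fcgr1 and Ncf1, 2 of these 8 genes, and in 7.02% of all promoters. A GAAANNGAA match was found before Fcgr4, Cybb and Ncf1, and in 7.13% of all promoters. The Cybb promoter held 3 such matches and the Ncf1 match overlapped the last 3 bases of its TTCNNNGAA match. GAGGAA was found before Fcgr1, Fcgr3 and Fcgr4, and in 23.3% of all promoters. These matches are descriptions of letters and show no binding.

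Active CRHR1 bulbs had higher levels of all 9 genes than Cre GFP bulbs. The activating receptor Fcgr4 differed most, with a 13.4-fold higher level, and Cybb was 3.99-fold higher. Both sizes depend on the background correction: with normexp in place of the scanner's, Fcgr4 differed by 2.91 log2 in place of 3.74, and Cybb by 0.83 log2 in place of 2.00, which is below 7 of the other 8 genes. Fcgr1, Fcer1g, Ncf1 and Ncf4 were 2.41- to 2.70-fold higher, Fcgr3 and Cyba 1.97- and 1.96-fold, and the inhibitory receptor Fcgr2b 1.59-fold. All 9 of 9 passed limma's test at an adjusted p under 0.05, against 3.91% of all genes tested that passed it upwards, and on 8 of 9 the arrays of both groups did not overlap, against 3.3% of all genes. The median difference over the 9 genes was 1.39 log2, and that over all genes was -0.06. More cells of a type and more RNA per cell cannot be told apart in RNA of a whole bulb. The genes were chosen with these results known, so that the counts describe the set and do not test it.

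Among the activating receptors, Fcgr1 encodes the receptor with high affinity for monomeric immunoglobulin G. Its level was 0.81, -0.33, 0.35, 0.51 and 0.62 on active CRHR1 arrays 1 to 5, -1.05, -1.23, -0.48, -1.19 and -0.62 on knockout arrays 1 to 5, and -0.98, -0.83, -0.90, -1.27 and -1.21 on Cre GFP arrays 1 to 5. Each active CRHR1 array was above every array of the other groups, and active CRHR1 array 2 was the nearest to them. Active CRHR1 differed from Cre GFP by 1.43 ± 0.20 log2 (SE, adjusted p = 0.000762 by limma).

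Fcgr4 encodes a low-affinity receptor that prefers some subclasses of immunoglobulin G. Its level was 0.86, -1.65, -0.13, 0.21 and 0.43 on active CRHR1 arrays, -3.73, -3.96, -2.56, -3.82 and -2.69 on knockout arrays, and -3.40, -2.92, -3.99, -4.19 and -4.48 on Cre GFP arrays. All 5 active CRHR1 arrays lay above all 10 others, and they spread more (SD 0.96) than the knockout arrays (SD 0.67) and the Cre GFP arrays (SD 0.63). Against Cre GFP, active CRHR1 was higher by 3.74 ± 0.45 log2 (adjusted p = 0.000322 by limma).

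Fcgr3 encodes the other low-affinity activating receptor. Its level was 0.87, 0.17, 0.46, 0.74 and 1.02 on active CRHR1 arrays, -0.20, -0.33, -0.022, -0.43 and 0.12 on knockout arrays, and -0.11, -0.0086, -0.62, -0.43 and -0.47 on Cre GFP arrays. The groups did not overlap between active CRHR1 and either of the others, although the lowest active CRHR1 array, at 0.17, was close to the highest knockout array, at 0.12. The difference from Cre GFP was 0.98 ± 0.17 log2 (adjusted p = 0.0026 by limma).

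Fcgr2b encodes the only inhibitory receptor of the family, and its probe was printed in 10 spots per array. The SD between these spots was 0.057 to 0.11 log2 on an array, under the SD between the mice of a group (0.24 to 0.41 log2). Its level was -0.067, -0.81, -0.32, -0.14 and -0.060 on active CRHR1 arrays, -1.15, -1.14, -0.61, -0.85 and -0.74 on knockout arrays, and -0.73, -0.45, -1.48, -1.21 and -0.87 on Cre GFP arrays. The groups overlapped: Cre GFP arrays 1 and 2 were above active CRHR1 array 2. The difference of active CRHR1 from Cre GFP was 0.67 ± 0.20 log2 with an adjusted p of 0.0494 by limma, just inside the threshold. This call was lost in 11 of the 15 fits that left out 1 array, those without knockout arrays 1 to 4, Cre GFP arrays 3 to 5, or active CRHR1 arrays 1, 3, 4 or 5, with adjusted p up to 0.122.

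The signalling chain Fcer1g carries the activation motif through which Fcgr1, Fcgr3 and Fcgr4 signal. Its level was 4.19, 3.06, 3.66, 4.13 and 4.08 on active CRHR1 arrays, 2.63, 2.61, 2.94, 2.51 and 3.13 on knockout arrays, and 2.64, 2.81, 2.16, 2.18 and 2.26 on Cre GFP arrays. Every active CRHR1 array was above every Cre GFP array, and only knockout array 5 was above active CRHR1 array 2. Fcer1g was higher in active CRHR1 than in Cre GFP by 1.42 ± 0.21 log2 (adjusted p = 0.00109 by limma).

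**Figure D1:**
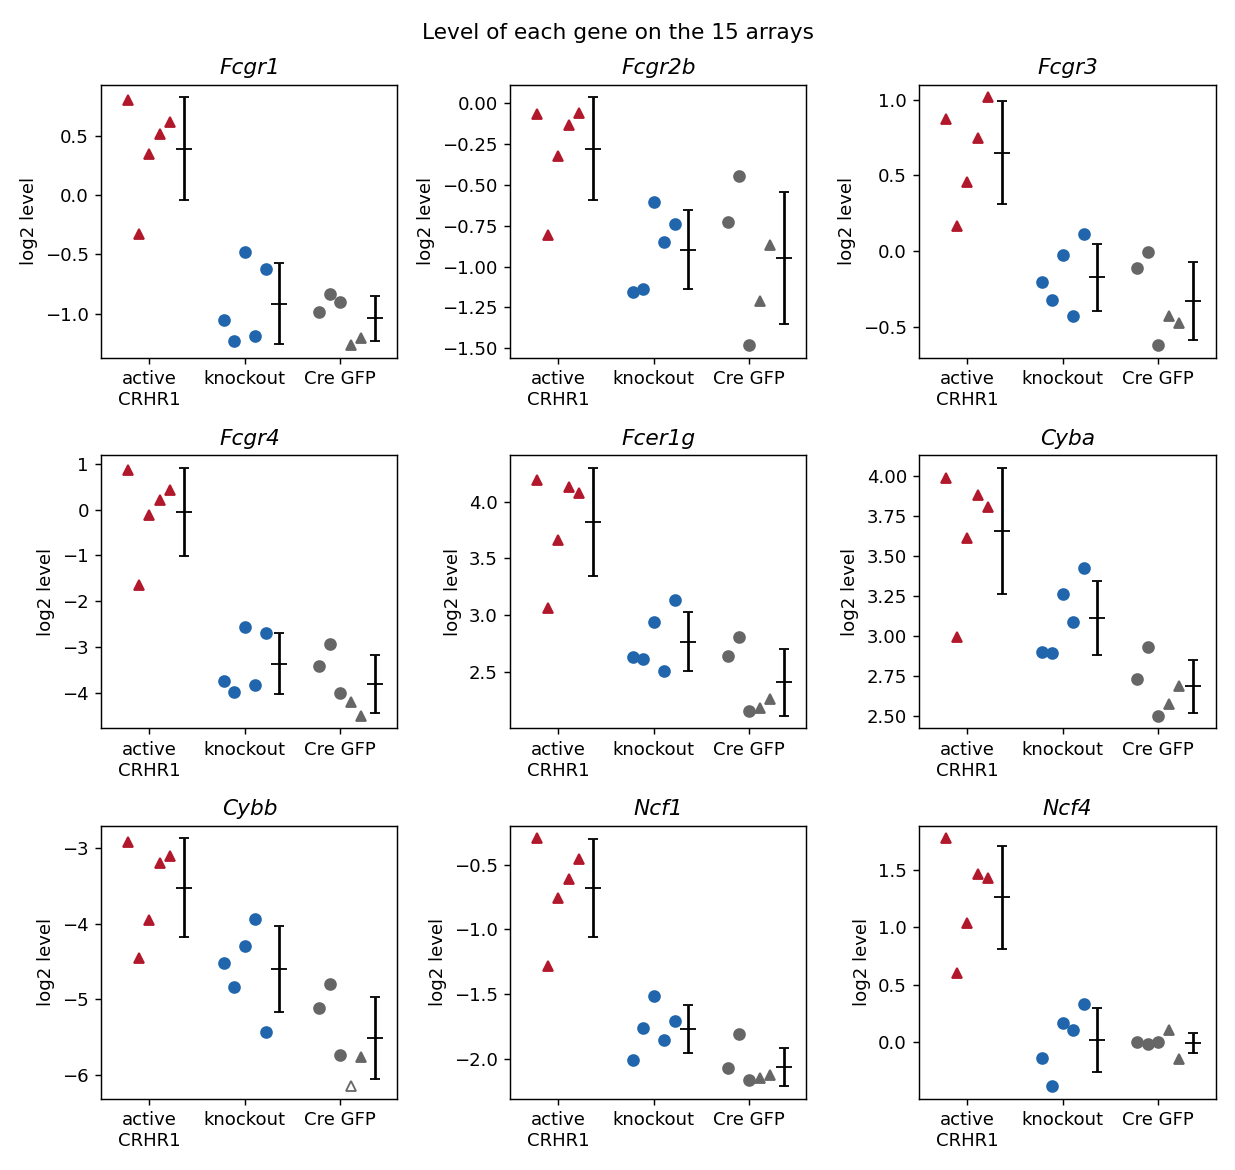
Level of each gene (log2 signal minus the array's 75th percentile) on each array; circles are arrays of slide 1, triangles arrays of slide 2, an open symbol is a spot not well above background, and bars are mean ± SD of a group (n = 5). In Fcgr4 all 5 active CRHR1 arrays, at -1.65 to 0.86, lie above the knockout arrays and the Cre GFP arrays, while in Fcgr2b the groups overlap.

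Of the membrane subunits of the oxidase, Cybb encodes the catalytic part that carries electrons across the membrane. Its level was -2.91, -4.45, -3.95, -3.19 and -3.09 on active CRHR1 arrays, -4.52, -4.84, -4.30, -3.93 and -5.43 on knockout arrays, and -5.12, -4.80, -5.74, -6.16 and -5.77 on Cre GFP arrays. The probe was dim, and on Cre GFP array 4 it was not well above background. Active CRHR1 arrays were all above Cre GFP arrays, whereas knockout arrays lay between and overlapped both. The difference of active CRHR1 from Cre GFP was 2.00 ± 0.35 log2 (adjusted p = 0.00315 by limma), the value that shrank with normexp.

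Cyba encodes the partner that holds the catalytic subunit in the membrane. Its brighter probe, which stands for the gene in the counts, gave 3.99, 2.99, 3.62, 3.88 and 3.81 on active CRHR1 arrays, 2.90, 2.89, 3.27, 3.09 and 3.43 on knockout arrays, and 2.73, 2.94, 2.50, 2.58 and 2.69 on Cre GFP arrays. Active CRHR1 and Cre GFP arrays did not overlap, by the small margin between active CRHR1 array 2, at 2.99, and Cre GFP array 2, at 2.94. The difference was 0.97 ± 0.17 log2 (adjusted p = 0.00307 by limma). The coding probe printed above gave nearly the same difference, 0.99 log2, so both readings of the gene moved alike.

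Ncf1 encodes the organiser of the cytosolic subunits. Its level was -0.30, -1.28, -0.76, -0.61 and -0.46 on active CRHR1 arrays, -2.01, -1.76, -1.52, -1.85 and -1.71 on knockout arrays, and -2.07, -1.81, -2.17, -2.15 and -2.13 on Cre GFP arrays. All active CRHR1 arrays were above all others, and the Cre GFP arrays lay close together (SD 0.15). Ncf1 was higher in active CRHR1 than in Cre GFP by 1.39 ± 0.16 log2 (adjusted p = 0.000264 by limma).

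Ncf4 encodes a further cytosolic subunit, which binds a phosphoinositide of the phagosome membrane. Its level was 1.77, 0.60, 1.03, 1.46 and 1.42 on active CRHR1 arrays, -0.14, -0.38, 0.17, 0.11 and 0.33 on knockout arrays, and 0.0051, -0.015, 0.0016, 0.10 and -0.14 on Cre GFP arrays. Again each active CRHR1 array was above every other array, while knockout arrays lay on both sides of the narrow range of the Cre GFP arrays. Ncf4 was higher in active CRHR1 than in Cre GFP by 1.27 ± 0.19 log2 (adjusted p = 0.00096 by limma).

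The genes did not differ between active CRHR1 and Cre GFP by the same amount. Each pair of genes was compared by the difference of their 2 levels on the same array, with a two-sided exact permutation test over the 252 splits of the 10 arrays, and p was adjusted over the 36 pairs. Of these pairs 25 passed, and the smallest p that 5 against 5 arrays allow is 0.00794. All 8 pairs with Fcgr4 were among them: its difference was larger than that of Cybb, the next in order with the scanner's background, by 1.75 ± 0.22 log2 (SE, exact p = 0.00794, adjusted p = 0.0159). Fcgr2b differed from 7 of the other 8 genes, and its difference was below that of Fcgr3 by 0.31 ± 0.10 log2 (exact p = 0.0238, adjusted p = 0.039). Of the 8 neighbouring pairs in the order of the differences, only that of Fcgr4 and Cybb passed. The place of Cybb in this order does not hold with normexp, where Fcer1g (1.42 log2) follows Fcgr4, and the pairs were not tested on those values. Fcgr1, Fcer1g, Ncf1 and Ncf4 could not be told apart from each other (exact permutation p = 0.183 to 0.889), and neither could Fcgr3 and Cyba (exact permutation p = 0.881).

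**Figure D2:**
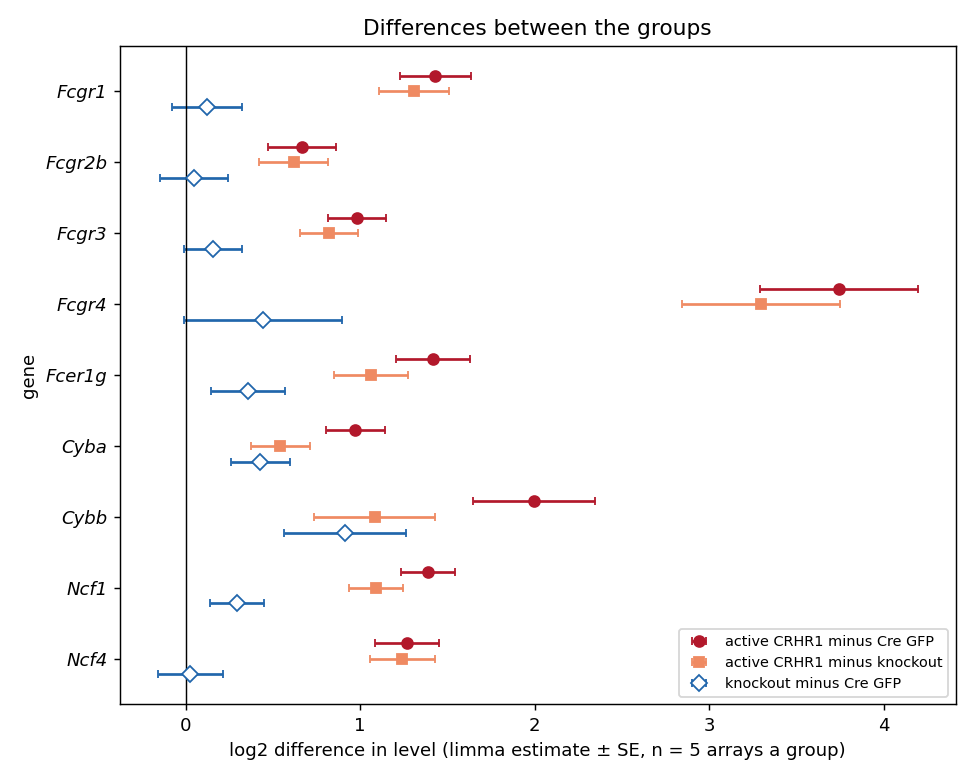
Difference in level of each gene between groups (limma estimate ± SE, n = 5 arrays a group), with filled symbols for an adjusted p under 0.05. Active CRHR1 minus Cre GFP runs from 0.67 for Fcgr2b to 3.74 for Fcgr4, and knockout minus Cre GFP from 0.03 to 0.91 with no filled symbol.

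Knockout bulbs did not differ detectably from Cre GFP bulbs in any of the 9 genes. All 9 means were higher in the knockout group, by 0.03 (Ncf4) to 0.91 (Cybb) log2, but 0 of 9 passed limma's test, with adjusted p from 0.165 to 0.954. Among all genes 1.97% passed it upwards and 1.39% downwards. Without adjustment 2 genes, Cybb (0.91 log2) and Cyba (0.43 log2), were under a p of 0.05. The arrays overlapped in all 9 genes, whereas in 3.15% of all genes the knockout arrays lay wholly above the Cre GFP arrays. Within slide 1, against Cre GFP arrays 1 to 3, the difference of Fcgr1 was -0.0097 log2 and that of Cybb 0.61 log2. With arrays centred on their median, Fcgr2b and Ncf4 were at -0.00651 and -0.0286 log2, so the sign of these small differences is not settled.

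Active CRHR1 bulbs were also above knockout bulbs in all 9 genes, by 0.54 to 3.30 log2. All 9 of 9 passed limma's test, against 9.38% of all genes that passed it upwards, and in 5 of 9, Fcgr1, Fcgr3, Fcgr4, Ncf1 and Ncf4, the arrays did not overlap, against 6.84% of all genes. Fcgr4 differed by 3.30 ± 0.45 log2 (adjusted p = 0.000526 by limma), Fcgr1 by 1.31 ± 0.20 log2, Ncf4 by 1.24 ± 0.19 log2 and Ncf1 by 1.09 ± 0.16 log2. The calls of Cyba (0.54 log2, adjusted p = 0.0326 by limma), Cybb (1.08 log2, adjusted p = 0.0371 by limma) and Fcgr2b (0.62 log2, adjusted p = 0.0346 by limma) were near the threshold. Each was lost on leaving out knockout array 1 or 2, or active CRHR1 array 1, 4 or 5; the Fcgr2b and Cyba calls were also lost without knockout array 4 or active CRHR1 array 3, and the Cybb call without knockout array 5. Comparisons that share arrays are not independent of each other.

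Slide and group overlap in part, so each comparison was repeated with slide in the fit. The difference of active CRHR1 from Cre GFP is then the one within slide 2, and it was 4.28 log2 for Fcgr4, 2.44 for Cybb, 1.63 for Fcgr1, 1.60 for Fcer1g, 1.46 for Ncf1, 1.28 for Ncf4, 1.10 for Fcgr3, 1.03 for Cyba and 0.76 for Fcgr2b. All 9 values were as large as those over both slides or larger, and 8 of 9 genes passed limma's test with slide as a block, against 2.45% of all genes. Fcgr2b did not (adjusted p = 0.125). With the 7 arrays of slide 2 alone only Fcgr4 passed (adjusted p = 0.0404), against 0.944% of all genes, and the other 8 had adjusted p of 0.0506 to 0.111. Between active CRHR1 and knockout arrays, which share no slide, only Fcgr1, Fcgr4 and Ncf1 passed with the block, 3 of 9 genes against 1.17% of all genes.

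Single arrays were low or high for most of the 9 genes in the active CRHR1 and Cre GFP groups. In the active CRHR1 group array 2 was the lowest for all 9 genes, on average 0.77 log2 under the group, and array 1 was the highest for 7 of them, Fcgr2b and Fcgr3 being highest on array 5. In the Cre GFP group array 2 was the highest for 8 genes, the exception being Ncf4. The knockout group had no such array: array 3 was highest for 4 genes, array 5 for 4 and array 4 for Cybb, and Cybb was lowest on array 5. Without active CRHR1 array 2 the differences from Cre GFP were larger, 4.14 log2 for Fcgr4 and 0.80 for Fcgr2b, and all 9 genes passed limma's test.

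**Figure D3:**
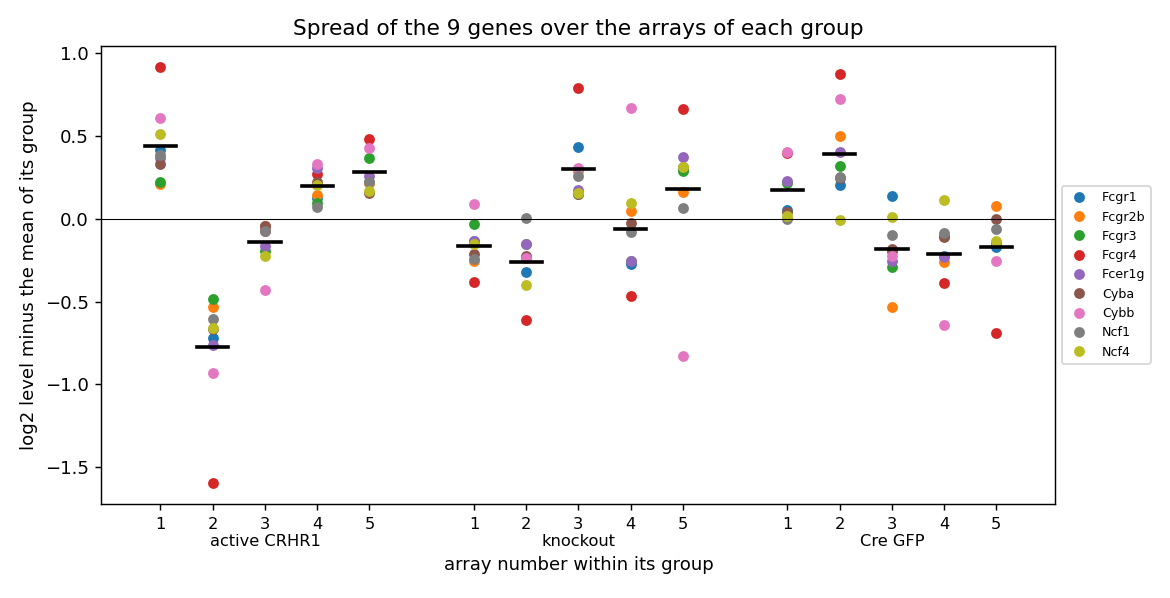
Level of each of the 9 genes on an array minus the mean of that gene over its group, on a log2 scale, with black bars for the mean over the 9 genes. On active CRHR1 array 2 all 9 genes lie under their group's mean, by 0.77 on average.

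Genes with the most similar pattern were taken as those with the highest Pearson correlation, over the 15 arrays, with the mean standardised level of the 9 genes. They were Cd48 (r = 0.997), which encodes a surface protein of blood cells, Bcl2a1d (r = 0.995), a survival factor of the Bcl2 family, Aif1 (r = 0.995), which encodes the microglia and macrophage protein Iba1, Cd86 (r = 0.994), a costimulatory ligand, and Ptpn6 (r = 0.992), a phosphatase of immune receptors. The active CRHR1 arrays stand apart from the others in this pattern, and all arrays share the same scaling, so that these values describe the arrays and test nothing. Among the 9 genes themselves the correlation with the mean was highest for Fcer1g (r = 0.991) and lowest for Cybb (r = 0.890).

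Marker genes of microglia moved beside the 9 genes, but not all to the same extent. Of 12 genes common to microglia and macrophages, 11 rose in active CRHR1 bulbs against Cre GFP bulbs, with a median of 1.45 log2, among them Aif1 (1.89) and C1qa (1.56). The mean level of these 12 genes was 2.10 to 2.90 on active CRHR1 arrays, 1.48 to 1.81 on knockout arrays and 1.14 to 1.70 on Cre GFP arrays, and in the active CRHR1 group it too was lowest on array 2. Of 12 genes that mark microglia in the undisturbed brain, 5 rose, with a median of 0.23 log2, and their mean level was 2.42 to 2.64 on active CRHR1 arrays, 2.24 to 2.53 on knockout arrays and 2.16 to 2.43 on Cre GFP arrays. P2ry12 differed by -0.27 log2 and Cx3cr1 by 0.17 log2, and neither passed the test.

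Set against the mean of the 12 genes of undisturbed microglia on the same array, all 9 genes were higher in active CRHR1 bulbs than in Cre GFP bulbs. The mean of these markers was 2.42 to 2.64 on active CRHR1 arrays and 2.16 to 2.43 on Cre GFP arrays. This scale thus changed the differences little, and their signs are no separate result. The differences relative to these markers ran from 0.46 ± 0.16 log2 for Fcgr2b (adjusted p = 0.0314 by limma) to 3.53 ± 0.42 log2 for Fcgr4 (adjusted p = 0.000281 by limma), against 3.3% of all genes that passed upwards on this scale. Set against the mean of the 12 genes shared by microglia and macrophages, only Fcgr4 (2.50 ± 0.30 log2) and Cybb (0.76 ± 0.25 log2) were higher in active CRHR1 bulbs, 2 of 9 genes against 1.16% of all genes. On that scale 93.3% of all genes were lower, as Fcgr2b was (-0.57 ± 0.16 log2), so nothing is read from its fall, and 6 genes did not pass, with values between -0.27 (Cyba) and 0.19 (Fcgr1). Both scales were chosen after the data were seen and were not computed with normexp, under which the Cybb difference itself was 0.83 log2.

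Markers of other blood cells were not alike. Of 8 tested T and NK cell genes 6 rose, among them Cd3d (2.80 log2, well above background on 4 Cre GFP arrays) and Gzmb. No size is given for Gzmb, since it was well above background on 5 active CRHR1 arrays and 1 Cre GFP array. Cd3e (0.12 log2, adjusted p = 0.702 by limma) and Cd4 (-0.07 log2, adjusted p = 0.698 by limma) did not pass. Both were well above background on every array. The mean level of the 8 genes was -3.19 to -1.19 on active CRHR1 arrays, -3.81 to -2.80 on knockout arrays and -4.08 to -2.62 on Cre GFP arrays. Of 8 genes of monocytes and border macrophages 3 rose, Plac8 (3.30 log2), Ms4a7 (0.93 log2) and Ccr2, the last of which was well above background on 4 active CRHR1 arrays and 0 Cre GFP arrays, so that no size is given. Mrc1 (0.23 log2) and Lyve1 (-0.60 log2) did not pass. Their mean level was -2.19 to -1.26 on active CRHR1 arrays, -2.36 to -1.77 on knockout arrays and -2.78 to -2.28 on Cre GFP arrays. Of 9 tested neutrophil genes 0 passed limma's test between active CRHR1 and Cre GFP, and 0 had an unadjusted p under 0.05. Between knockout and Cre GFP 0 passed as well, but 7 had an unadjusted p under 0.05, with a median of 1.33 log2. Ly6g was well above background on 3 active CRHR1 arrays alone, and Cxcr2 on 1 knockout array alone. The mean neutrophil level was -1.94 to -1.06 on active CRHR1 arrays, -1.81 to 0.27 on knockout arrays and -2.29 to -1.17 on Cre GFP arrays. Of 6 mast cell genes 2 could be tested, neither passed or had an unadjusted p under 0.05, and Fcer1a and Ms4a2 were well above background on no array. The mean mast cell level was -4.60 to -3.81 on active CRHR1 arrays, -4.60 to -3.99 on knockout arrays and -4.35 to -3.64 on Cre GFP arrays. Markers of olfactory bulb neurons mostly had lower means in active CRHR1 bulbs than in Cre GFP bulbs, with a median of -0.21 log2 beside -0.06 over all genes. Of these 17 genes 3 fell, Dlx2 (-0.31 log2), Meis2 (-0.30 log2) and Calb2 (-0.29 log2), and 0 rose. Of all 27339 genes tested 1252 fell in this comparison. Without adjustment 9 of the 17 had a limma p under 0.05. Their mean level was 3.55 to 3.82 on active CRHR1 arrays, 3.78 to 3.90 on knockout arrays and 3.83 to 4.01 on Cre GFP arrays. The part of each of these cell types in the differences of the 9 genes was not tested.

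**Figure D4:**
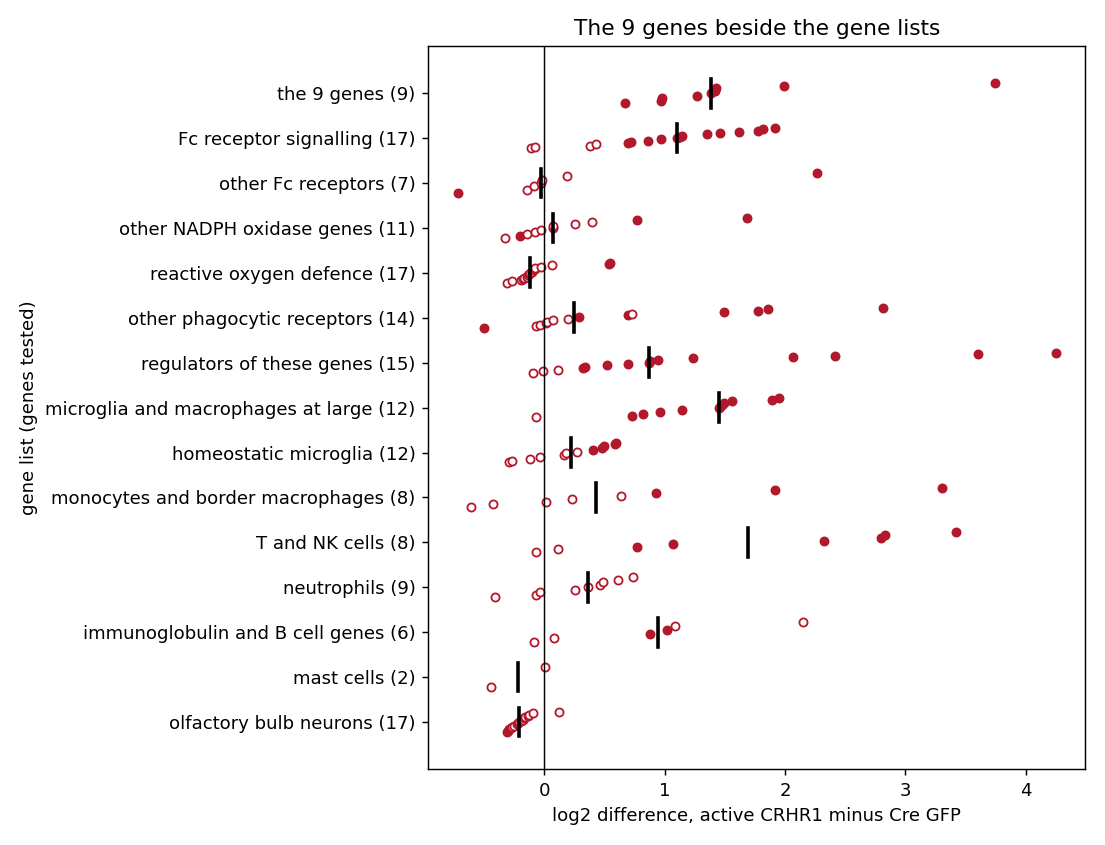
Difference in level between active CRHR1 and Cre GFP for the 9 genes and for each tested gene of the other lists, with filled symbols for an adjusted p under 0.05 and black bars for the median of a list. The median is 1.39 for the 9 genes, 1.45 for genes shared by microglia and macrophages and 0.23 for genes of undisturbed microglia.

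Of 17 genes of Fc receptor signalling 13 were higher in active CRHR1 bulbs than in Cre GFP bulbs and 0 lower, with a median of 1.11 log2 beside -0.06 over all genes. Examples are the Src-family kinase Fgr (1.91 ± 0.13 log2, adjusted p = 3.35e-06 by limma), the adaptor Lat2 (1.62 log2), the phosphatase Ptpn6 (1.35 log2) and the phospholipase Plcg2 (0.97 log2). Fgr also rose in knockout bulbs against Cre GFP bulbs (1.23 log2, adjusted p = 0.000197 by limma), as the only one of the 17. Its probe was dim, with a mean level of -5.30 on Cre GFP arrays, and was well above background on 4 of them. How the sizes for Fgr depend on the background correction was not tested. The kinases Syk (0.39 log2, adjusted p = 0.0575 by limma) and Lyn (-0.07 log2, adjusted p = 0.591 by limma), named here after their values were seen, did not pass, nor did Vav3 and Pik3cd. Between active CRHR1 and knockout bulbs 13 of the 17 were higher and Vav3 was lower (-0.28 log2).

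Other Fc receptors and related genes were a mixed group. Of 11 listed 7 could be tested, 1 was higher in active CRHR1 bulbs and 1 lower, with a median of -0.03 log2. Trim21, a receptor for antibody inside the cell, was higher by 2.27 ± 0.35 log2 (adjusted p = 0.00119 by limma), and the microglial gene Fcrls was lower, at -0.71 ± 0.20 log2 (adjusted p = 0.0413 by limma). The transport receptor Fcgrt differed by -0.03 log2 and Fcmr, the receptor for immunoglobulin M, by -0.08 log2 from Cre GFP, and neither passed. Fcmr rose in knockout bulbs (0.64 log2, adjusted p = 0.029 by limma).

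A list of other oxidase genes, which holds genes of the phagocyte oxidase and of related oxidases, moved in part. Of 11 tested, 2 were higher in active CRHR1 bulbs than in Cre GFP bulbs, against 3.91% of all genes, and 1 was lower. The count is of the whole list and not of the phagocyte oxidase alone. Rac2, the small GTPase of blood cells that joins the oxidase, was higher by 1.68 ± 0.20 log2 (adjusted p = 0.00032 by limma). The widely expressed Rac1 was lower, at -0.20 log2 (adjusted p = 0.044 by limma), and the proton channel Hvcn1, at 0.39 log2, did not pass (adjusted p = 0.0569 by limma). The oxidases Nox1 (-0.32 log2) and Nox4 (0.08 log2), named after their values were seen, did not pass, and Nox3 was well above background on no array.

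Of 17 genes of the defence against reactive oxygen, regulators among them, 2 were higher and 0 lower in active CRHR1 bulbs than in Cre GFP bulbs. Their median was -0.12 log2. The heme oxygenase Hmox1 (0.54 log2, adjusted p = 0.0331 by limma) and Nfe2l2, the regulator NRF2 (0.54 log2, adjusted p = 0.011 by limma), rose. Prdx1 (-0.10 log2) and Gclm (-0.13 log2), in thiol and glutathione metabolism, did not pass. Between active CRHR1 and knockout bulbs 2 of the 17 were higher and 6 lower, with a median of -0.22 log2 beside -0.07 over all genes. Of all 27339 genes tested, 2565 (9.38%) were higher and 4439 lower in this comparison, so nothing is read from the 2 higher genes. Among the 6 lower ones were Prdx1 (-0.30 log2, adjusted p = 0.0102 by limma) and Gclm (-0.34 log2, adjusted p = 0.00693 by limma).

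Of 14 other phagocytic receptors and opsonins 6 rose and 1 fell, with a median of 0.25 log2. The integrin chains Itgax (2.82 ± 0.33 log2) and Itgb2 (1.77 ± 0.19 log2) and the scavenger receptor Cd36 (1.49 ± 0.25 log2) were higher in active CRHR1 bulbs, with adjusted p of 0.000301, 0.00022 and 0.0023 by limma. The Cd36 probe was dim, with a mean level of -5.00 on Cre GFP arrays. How its size depends on the background correction was not tested. Mfge8, a bridging protein for dying cells, fell by 0.50 log2 (adjusted p = 0.00767 by limma). Immunoglobulins are the ligands of the Fc receptors, but only 6 of 15 listed immunoglobulin and B cell genes could be tested. Of these Mzb1 (1.02 log2) and Cd79b (0.88 log2) rose in active CRHR1 bulbs, Jchain (2.15 log2) did not pass, and Ighm was well above background on 1 active CRHR1 array alone. Cd79b rose in knockout bulbs too (0.95 log2, adjusted p = 0.015 by limma). The mean level of the 6 genes was -3.35 to -2.36 on active CRHR1 arrays, -3.63 to -2.87 on knockout arrays and -3.99 to -3.30 on Cre GFP arrays.

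Factors known to act on Fc receptor and oxidase genes were mostly higher. Of 15 tested 12 rose and 0 fell, with a median of 0.87 log2. Irf1 (2.42 ± 0.34 log2) and Irf8 (2.07 ± 0.23 log2), which are interferon regulatory factors, and Cebpb (0.95 ± 0.12 log2) rose, with adjusted p of 0.000808, 0.000264 and 0.000406 by limma. The cytokine gene Tnf rose too (adjusted p = 0.000543 by limma), and no size is given since it was well above background on 5 active CRHR1 arrays and 2 Cre GFP arrays. Spi1, which encodes PU.1, rose by 1.23 log2 (adjusted p = 0.00443 by limma) and is named because its motif was searched. Its probe was dim, with a mean level of -4.61 on Cre GFP arrays, and this size was not tested with normexp. Between knockout and Cre GFP bulbs 0 of the 15 passed limma's test and 5 had an unadjusted p under 0.05, with a median of 0.28 log2.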

How the data were processed

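RNA of 15 bulbs was measured on 1-colour Agilent arrays, 1 per mouse. Per the labels' protocols, 100 ng of total RNA was labelled with Cy3. The deposited scanner files hold the intensity of each of 62976 spots, which, per the file headers, Agilent Feature Extraction 10.7.3.1 had background-subtracted and detrended within each array; other deposited columns are flags and probe descriptions (mm9 coordinates). The authors' series values are the same intensity divided by a constant of each array (tolerance 0.01, 100% of spots), with column medians of 0.899 to 0.935.

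From the deposited intensity, control and outlier spots were left out, each array's 75th percentile was subtracted on the log2 scale, and repeat spots were averaged; 0 spots were saturated. Probes well above background on at least 4 of 5 arrays of a group were kept (33968 of 55681), and the probe with the highest mean stood for its gene. RefSeq named 27509 probes and changed 2017 symbols. The 3 comparisons were fitted over all genes and 15 arrays with limma 3.58.1 in R 4.3.3, adjusted by Benjamini-Hochberg. Simulated data tested the steps. Deviations of same-numbered arrays of different groups correlated at -0.22 to 0.40, with the highest value for knockout array 5 and Cre GFP array 5. These values do not settle whether numbers link mice of different groups, and the main fits used no pairing.

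The genes, the lists and the rule for named genes were chosen with earlier results of these data known. The rule named the 9 genes, Crhr1, up to 4 genes a pathway list with the smallest p over the 3 groups, and the 5 most similar genes; marker genes given as examples were picked after their values were seen. A few listed genes are counted in their lists but not reported here by name. Columns of no sample here numbered 0. Python 3.11.15, pandas 2.3.3 and matplotlib 3.10.9 were used.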

Additional observations from a re-analysis of the deposited data

Results flagged for a closer look

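One value among 27 sets of 5 arrays stood apart from its group: Ncf1 on Cre GFP array 2 was at -1.81, while the other 4 Cre GFP arrays lay between -2.17 and -2.07. Its gap to the nearest array was 0.723 of the range of the group, above Dixon's critical value of 0.71, which chance passes in about 1 of 20 groups. The same array was the highest of its group for 8 of the 9 genes.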

How the results depend on the processing

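The alternatives were quantile, median and series-value scaling, normexp background correction, other filters and probe choices, slide as a block or alone, 2-group fits, an intensity trend, array weights, a stricter threshold, a replicate block, each array left out, and, chosen after seeing the data, knockout arrays 2 and 5 left out. Between active CRHR1 and Cre GFP, 9 genes were called, 1 with slide 2 arrays only and 7 to 9 otherwise. Between active CRHR1 and knockout 9 were called, 3 with slide as a fixed block and 6 to 9 otherwise. With the replicate block, which links arrays by number, 8, 0 and 6 genes were called between active CRHR1 and Cre GFP, knockout and Cre GFP, and active CRHR1 and knockout. The sign of knockout against Cre GFP turned for Fcgr2b (-0.00651) and Ncf4 (-0.0286) with median centring, for Fcgr1 (-0.0097) and Fcgr2b (-0.0115) with slide as a block or slide 1 alone, and for Ncf4 (-0.043) with array weights; with 1 array left out Fcgr2b ran from -0.084 to 0.17 and Ncf4 from -0.050 to 0.13. The cause was not tested. Fcgr2b kept its call against Cre GFP in 10 of 31 alternatives, and Fcgr4 in 31 of 31. Over all genes, calls between active CRHR1 and Cre GFP numbered 2320. They were 1268 with median centring, 1009 with the slide block, 328 on slide 2 and 5655 with array weights. Between knockout and Cre GFP there were 917, and 406 with median centring, 389 with the slide block, 114 on slide 1 and 1413 with array weights. Calls between active CRHR1 and knockout numbered 7004. They were 4231 with median centring, 678 with the slide block, 7280 with array weights and 10625 with slide as a random block. With 1 array left out the calls ran, in the same order of comparisons, from 1181 to 3600, from 430 to 953 and from 4143 to 7902. The lowest were without active CRHR1 array 1, Cre GFP array 4 and knockout array 4. The highest of the first was without Cre GFP array 1. Median centring moved the share of higher calls to 56.2%, 32.8% and 48.5%, against 46.0%, 58.7% and 36.6%, and the median difference of all genes between active CRHR1 and Cre GFP to -0.16. Signal over background limits the sizes of Cybb and Fcgr4, at 0.83 and 2.91 log2 with normexp between active CRHR1 and Cre GFP, and 0.44 and 2.58 between active CRHR1 and knockout.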
